A study of Mus musculus with 18 samples.

Results

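Gene expression was compared between testis and liver of wild type mice, over all genes in the files, using the 3 wild type testis libraries and the 3 wild type liver libraries, 6 of the 18 samples in the series. All 6 come from male C57BL/6 mice aged 8 weeks that carry no Pcgf6 deletion. The libraries were chosen by their labels alone, and no measured value entered the choice. The wider series also covers brain and mice that lack Pcgf6, a subunit of a repressive chromatin complex. Its knockout testis and liver libraries (replicates 4 to 6 of each tissue) serve here as a repeat of the tissue comparison. They also serve to flag genes whose tissue difference depended on genotype. Whether the replicates are separate animals is not said, so the p-values measure the spread between these libraries, which may be technical.

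The adult testis holds a dividing and differentiating germ line inside tubules built by Sertoli cells, with hormone-producing Leydig cells between them. Spermatogonia renew and enter meiosis, spermatocytes recombine and divide, and spermatids replace histones with protamines while they build an acrosome and a flagellum. The liver is made up mostly of hepatocytes, which secrete plasma proteins, break down amino acids and drugs, and make glucose, ketones, cholesterol and bile acids. In bulk tissue, fewer cells of a type and less RNA per cell cannot be told apart.

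Between 19949930 and 22073416 reads were assigned to genes in the liver libraries and between 20098777 and 23335596 in the testis libraries. Values are given as rescaled FPKM, which is reads per kilobase of gene, scaled to a library size that is corrected for composition by the trimmed mean of M values. The correction factors were 0.737 to 0.752 in liver and 1.31 to 1.39 in testis. Testis replicate 3 stood apart from the other testis libraries. Summed over 7 epididymis markers, the level was 4.63 in testis replicate 1, 19.97 in replicate 2 and 129 in replicate 3. Crisp1, a protein secreted onto sperm in the epididymis, made up most of the sum in replicates 2 and 3, at 1.75, 16.0 and 116 in the same order. Adam7, another of the 7, also rose, at 0.07, 1.23 and 7.18. Rnase10 went the other way, at 2.56, 2.01 and 1.47. The 5 blood genes summed to 26.9, 22.9 and 124 in the same order, while the protamine list was lowest in replicate 3 (21697, 21617 and 16216). The epididymis markers Lcn5, Lcn8 and Lcn9 were at 0.23 or below in all 3 testis libraries, and of the 7 only 2 could be tested, both higher in testis. Without testis replicate 3 the counts below were 12152 genes higher in testis and 6814 higher in liver. Testis replicates 1 and 2 were closer to each other than any other replicates, with a chi-square over genes of 3.62 per degree of freedom against 29.9 to 51.2 for the other pairs within a tissue. They still differed by more than sampling noise, for which this value would be near 1, and were kept as separate samples.

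**Figure D1:**
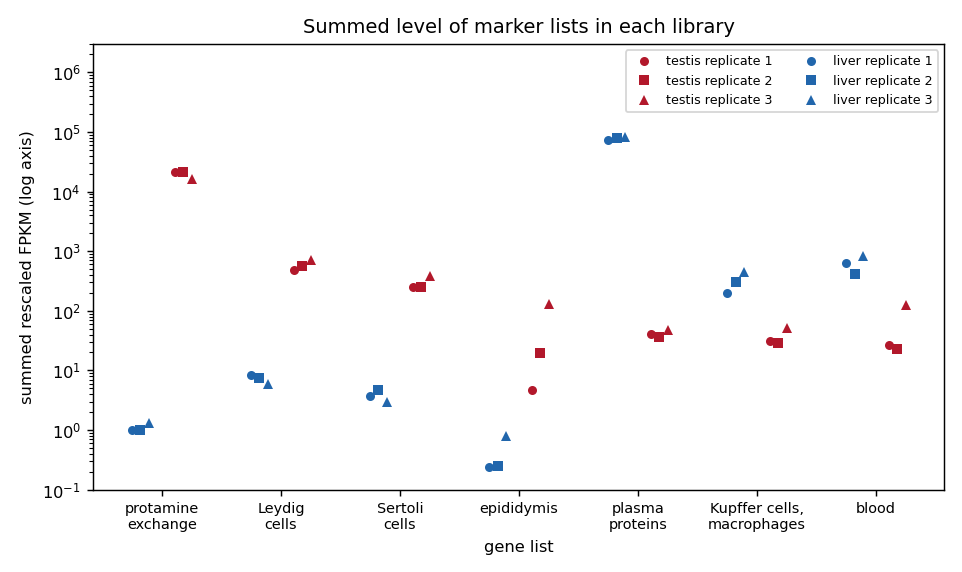
Summed rescaled FPKM (log axis) of 7 gene lists in each of the 3 wild type testis libraries (red) and 3 wild type liver libraries (blue), with the replicate number given by the symbol. Testis replicate 3 has the highest epididymis sum (129) and the highest blood sum among testis libraries (124), and the lowest protamine sum (16216).

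Most genes tested differed between the tissues, and more of those genes were higher in testis. Of 21737 genes tested, 12300 were higher in testis (56.6%) and 6757 were higher in liver (31.1%), together 87.7% at an adjusted p under 0.05 in limma with Benjamini-Hochberg adjustment. A difference of at least 2 on the log2 scale was called for 8123 genes in the testis direction (37.4%) and 3007 in the liver direction (13.8%). The 3 libraries of one tissue did not overlap with those of the other for 88.8% of genes tested. With most genes called, a call by itself sets a gene little apart, so sizes and levels are given beside the calls. The calls split 64.5% to 35.5% between testis and liver, and the median difference over all genes was 0.95 on the log2 scale. With plain library totals the split was 76.2% to 23.8% and the median lay 0.67 higher. With values scaled to a constant sum per library (TPM) it was 78.6% to 21.4%, and the median lay 1.06 higher. The sizes as deposited moved the median by 0.11 and gave 66.0% to 34.0%. The read filter (10 reads in at least 3 libraries) can be passed through 1 tissue alone. Of the genes tested, 4254 had no read in 1 tissue, so only 1 direction was possible for them. Among 8039 autosomal genes with at least 1 rescaled FPKM in all 6 libraries the order turned. Of these, 34.5% were higher in testis and 47.1% higher in liver. Their median difference was -0.26, smaller in size than the shifts of 0.67 and 1.06 between scalings. This turn therefore depends on the scaling, and the split of these genes with plain totals or TPM was not computed.

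The knockout libraries, which share no sample with the wild type ones, gave 12476 genes higher in testis (56.9%) and 7086 higher in liver (32.3%) of 21911 tested. Of 11938 genes that were higher in wild type testis and could be tested again, 11571 were called the same way (96.9%) and 4 the opposite way. Of 6663 genes that were higher in wild type liver, 6487 were called the same way (97.4%) and 0 the opposite way. A count of 0 here refers to limma at an adjusted p under 0.05.

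**Figure D2:**
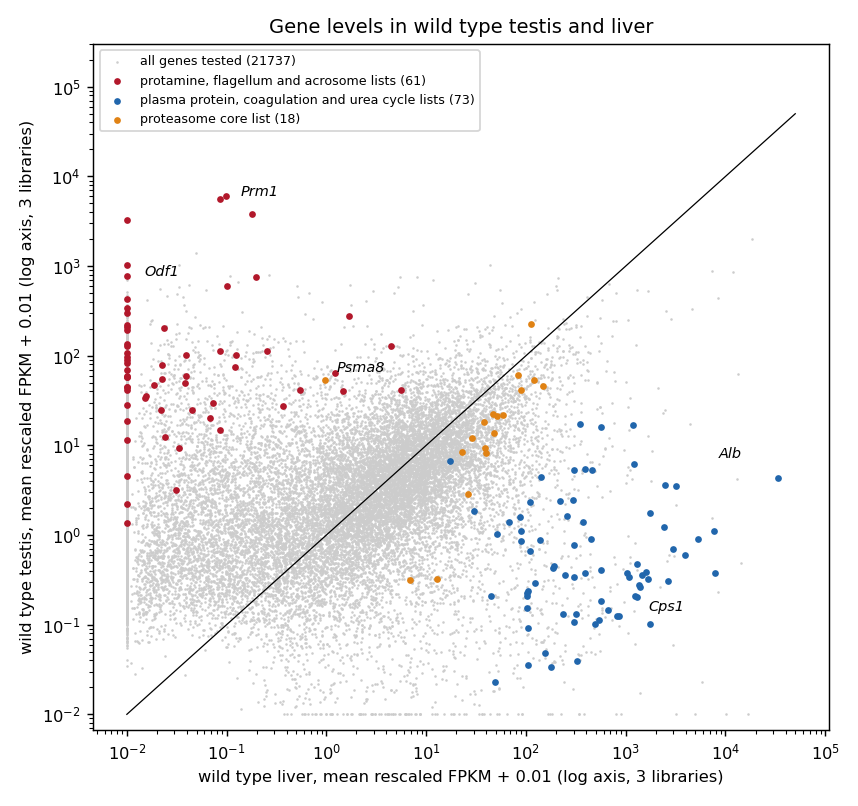
Mean rescaled FPKM + 0.01 of the 21737 genes tested in wild type liver (x, log axis) and wild type testis (y, log axis), 3 libraries each, with members of 7 gene lists coloured and the line of equal level drawn. Sperm genes such as Prm1 lie at the left edge and liver genes such as Alb at the lower right, while most proteasome core genes lie between them, below the line of equal level, and Psma8 lies above it.

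Transcripts were spread over more genes in testis than in liver. The 10 most abundant genes took 3.07 to 3.39% of reads in testis libraries and 17.1 to 18.3% in liver libraries, and the top 1000 took 42.5 to 44.8% and 70.7 to 71.7%. At a level of at least 1 rescaled FPKM, testis had 15606 ± 46.1 genes and liver 11302 ± 84.0 (SD, n = 3 each; exact permutation p = 0.1, two-sided, the smallest that 3 against 3 libraries can give). A mean of at least 1 in testis with no read in any liver library was found for 3110 genes, and the reverse for 128. Long intergenic RNAs leaned most to testis among the transcript classes examined, a grouping chosen after the files were seen. Of 1716 tested, 86.4% were higher in testis and 8.22% higher in liver, against 51.0% and 36.2% of 16526 protein coding genes. Of all 5082 long intergenic RNAs, 835 had a mean of at least 1 in testis and no liver read, and 10 the reverse. For 22027 protein coding genes these counts were 1232 and 34. A gene with no liver read can pass the filter through testis alone and can only be called higher in testis. They took 1.46% of reads in testis and 0.240% in liver. Antisense RNAs were similar, with 80.7% of 1044 higher in testis, but whether reads were counted by strand is not given in the sources used here, so antisense and overlapping genes cannot be told apart from their partners.

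The 13 genes of histone to protamine exchange, all higher in testis, held the most abundant testis transcripts. Prm1, a protamine that packs DNA in the sperm head, measured 6237, 6699 and 5206 in testis replicates 1 to 3 and 0, 0 and 0.26 in liver replicates 1 to 3. Its 2 liver reads gave a ratio of 67660, with an exact 95% interval from 18730 to 558700. Prm1 lies on mm10 chromosome 16 from 10796326 to 10796886. Tnp1, a transition protein that precedes protamines on DNA, measured 3855, 3558 and 2415 in testis and had no read in liver, which makes it at least 7538-fold higher against a limit of 3 reads per library. Tnp2 measured 6068, 6022 and 4674 in testis, with 2 reads in liver, a ratio of reads of 73150 with a 95% interval from 20250 to 604000. Prm2 had 7 reads in the 3 liver libraries and 4329, 4124 and 2896 rescaled FPKM in testis. For Prm1, Prm2, Tnp1 and Tnp2 every testis library lay above every liver library, and testis replicate 3 was the lowest testis library. Hils1, a histone of spermatids, measured 418, 434 and 425 in testis with no liver read. The list's median difference was 11.09 on the log2 scale (10.92 with genes at 0 reads set to their bound), against 0.95 over all genes tested (0.96 at the bounds).

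All members of the sperm tail and head lists were higher in testis. The 27 flagellum genes had a median difference of 8.85 on the log2 scale. Smcp, a protein of the mitochondrial capsule of sperm, measured 1139, 1122 and 833 in testis and Odf1, of the outer dense fibres, 874, 818 and 608, neither with a read in liver. The anchoring protein Akap4, the main component of the fibrous sheath and encoded on the X chromosome, measured 391, 362 and 261 in testis, also with no liver read, at least 5391-fold higher. All 21 acrosome and egg-binding genes were higher in testis (median 8.797, or 8.97 at the bounds). Adam3, a sperm surface protein needed for passage to the egg, measured 230, 218 and 174 in testis and had no read in liver. All 11 sperm ion channel and transporter genes were higher in testis (median 7.74), among them Catsper1, a pore subunit of the sperm calcium channel, at 43.2, 43.5 and 33.4 with no liver read.

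The earlier stages of the germ line differed by less and held exceptions. Of 29 meiotic genes, 26 were higher in testis, 1 was higher in liver and 2 were not called, with a median difference of 4.79. Syce1, of the synaptonemal complex that holds paired chromosomes, measured 140, 141 and 154 in testis with no liver read. The 2 that were not called were named after their values were seen. Prdm9, which places recombination sites, measured 1.79, 1.69 and 1.51 in testis and 1.74, 1.61 and 1.62 in liver, so the tissues overlapped (adjusted p = 0.977). Mnd1, a partner of the meiotic recombinase, measured 3.95, 4.45 and 12.02 in testis and 5.91, 6.74 and 5.85 in liver (adjusted p = 0.922).

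All 18 genes of the piRNA pathway, which silences transposons in the germ line, were higher in testis, with a median of 6.80 (7.25 at the bounds). Mael measured 441, 446 and 444 in testis with no read in liver, and Piwil1, which binds piRNAs, 93.3, 92.3 and 77.9 likewise. All 13 transcription regulators of spermatocytes and spermatids were higher in testis (median 7.25). Rfx2, a factor of cilium and flagellum genes, measured 92.2, 93.3 and 74.9 in testis and 0.55, 0.50 and 0.37 in liver. Crem, which activates spermatid genes, differed by less, at 22.0, 21.2 and 22.0 in testis against 5.15, 4.50 and 5.06 in liver.

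Of 17 spermatogonial markers tested, 14 were higher in testis and 3 higher in liver, with a median of 4.03 (4.25 at the bounds). Ddx4, a germ cell RNA helicase, measured 142, 133 and 130 in testis and had 2 reads in liver (ratio 9663, 95% interval from 2675 to 79790). Gfra1, the receptor subunit that marks stem spermatogonia, was higher in liver, at 54.8, 62.4 and 38.1 against 1.03, 0.96 and 1.42 in testis (-5.38 ± 0.22, SE, adjusted p = 6.5e-07). Foxo1 and Zbtb16, transcription factors also used outside the germ line, were higher in liver as well, at -2.89 and -2.51 on the log2 scale. All 20 cell division genes were higher in testis (median 5.42), among them the mitotic cyclin Ccnb2 at 65.6, 64.3 and 72.3 against 0.67, 0.24 and 0.68 in liver.

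Markers of the somatic cells of the testis were higher there too, and the Leydig and Sertoli sums were highest in testis replicate 3. All 9 Leydig cell genes were higher in testis (median 7.34, or 7.87 at the bounds). Insl3, a Leydig cell hormone, measured 308, 392 and 497 in testis and 0.44, 1.55 and 0.69 in liver. Cyp17a1, an enzyme of androgen synthesis, measured 48.5, 56.6 and 87.4 in testis and 7.13, 5.09 and 4.56 in liver. Testis replicate 3 was highest for both. The 13 Sertoli cell genes were all higher in testis (median 5.50), with the summed level at 248.8, 255 and 389 in replicates 1 to 3. Inha, the inhibin subunit by which Sertoli cells signal to the pituitary, measured 56.6, 56.3 and 98.3 in testis and at most 0.23 in liver. Of 6 smooth muscle genes, 4 were higher in testis. Without replicate 3 the Leydig median was 7.16, the Sertoli median 5.46 and the smooth muscle median 3.17. The epididymis and blood sums given above moved with replicate 3 in these lists, and their part in the somatic values was not tested.

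Secreted plasma proteins led the liver transcripts. Alb, the main carrier protein of plasma, measured 29501, 35243 and 37115 in liver replicates 1 to 3 and 4.95, 2.30 and 5.59 in testis replicates 1 to 3, a difference of -13.01 ± 0.33 (SE, adjusted p = 7.1e-08). Alb lies on mm10 chromosome 5 from 90460897 to 90476602. The 20 plasma carrier and transport genes were all higher in liver, with a median of -11.20. Ahsg, a mineral-binding protein, measured 6949, 7547 and 8695 in liver and 1.49, 0.55 and 1.22 in testis, and the lipoprotein gene Apoa1 measured 6748, 7718 and 8284 in liver and 1.53, 0.47 and 1.39 in testis. Testis replicate 2 was the lowest testis library for Alb, Ahsg and Apoa1, at 0.00677, 0.00712 and 0.00623% of their liver means, against 0.0146 to 0.0201% in the others. Apoe, a lipoprotein gene that many cell types express, stood at 0.349 to 0.698% of its liver mean.

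All 20 coagulation genes and all 18 complement genes were higher in liver, with medians of -9.12 and -8.01 on the log2 scale. Fga, the fibrinogen alpha chain that forms clots, measured 1529, 1999 and 1293 in liver and 0.49, 0.37 and 0.27 in testis. C3, the central complement protein, measured 1652, 1802 and 1934 in liver and 3.84, 3.66 and 4.49 in testis. Of 19 lipoprotein genes 18 were higher in liver (median -8.63), and Pltp, which moves phospholipids between particles and was named after its value was seen, was not called (-0.81, adjusted p = 0.0504). The 7 major urinary protein genes, pheromone carriers of rodents, were all higher in liver (median -14.15). Mup7 measured 22898, 14353 and 12606 in liver with no read in testis. The Mup genes and the Serpina1 genes have almost the same sequence within each family, which leaves the values of single members uncertain.

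Metabolic enzymes of hepatocytes formed the next group. All 33 genes of the urea cycle and amino acid breakdown were higher in liver (median -8.43). Cps1, the first enzyme of the urea cycle, measured 1219, 1628 and 1090 in liver and 0.21, 0.21 and 0.17 in testis. All 15 drug-metabolising cytochromes P450 (median -10.67) and all 15 tested genes of bile acid synthesis and transport (median -9.26) were higher in liver. Cyp2e1, which oxidises ethanol and small drugs, measured 3298, 3164 and 3193 in liver and 2.65, 1.31 and 2.49 in testis. All 13 conjugating enzymes were higher in liver (median -6.68). The tissues did not overlap for Cps1 or Cyp2e1.

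Several metabolic lists held genes with sizeable testis levels. All 16 genes of liver glucose and glycogen metabolism were higher in liver (median -7.53), but Fbp1, which makes glucose by gluconeogenesis, measured 229, 246 and 252 in testis against 742, 732 and 779 in liver, a difference of -1.63 ± 0.12 (SE, adjusted p = 1.2e-05). All 20 genes of fatty acid oxidation and ketogenesis were higher in liver (median -4.90). Of 21 cholesterol synthesis genes, 19 were higher in liver, 1 was higher in testis and 1 was not called. Their median was -1.69, or -0.86 with plain totals and -0.65 with TPM. Fdft1, which commits the pathway to sterols, was the gene higher in testis, at 69.0, 66.1 and 71.1 against 21.1, 37.7 and 27.4 (1.296 ± 0.21, SE, adjusted p = 0.000786). Sqle, the next enzyme of the pathway, was not called (-0.26, adjusted p = 0.465). Liver replicate 2 was the highest liver library for Fdft1. Of 10 iron genes 9 were higher in liver (median -5.46), among them Hamp, the hormone that limits iron uptake, at 4376, 2989 and 1820 against 0.51, 0.79 and 0.44.

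All 18 liver transcription factors were higher in liver, with a median of -6.38, at levels far under those of the secreted proteins. Hnf4a, the nuclear receptor that maintains hepatocyte identity, measured 187, 191 and 192 in liver and 0.04, 0.06 and 0.06 in testis (-10.29 ± 0.10, SE, adjusted p = 3.1e-09). Cebpa, a factor of metabolic genes, measured 245, 258 and 285 in liver and 1.14, 1.59 and 1.67 in testis. No library of either tissue overlapped with the other for Hnf4a or Cebpa.

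Promoters of the 200 genes with the largest called differences in each direction were searched for 7 motifs on both strands, in RefSeq windows (GRCm38.p6) from 250 bases before to 50 bases after each start. Windows were found for 153 of the liver genes (178 promoters) and 146 of the testis genes (173 promoters). The HNF1 motif GTTAATNAT was in 6.74% of the liver promoters and 0.578% of the testis promoters, against 0.801% of all 32851 promoters and 0.594% of promoters of genes tested. TATAAA was in 27.0% and 9.83%, against 13.6% of all and 8.81% of those of genes tested. The HNF4A motif CAAAGTCCA was in 3.37% and 1.73% (0.475% of all and 0.489% of those of genes tested), and the C/EBP motif TTGCGCAA was in 0% of both (0.183% and 0.256%). The cyclic AMP element TGACGTCA was in 0% and 2.89% (1.79% of all and 2.66% of those of genes tested), the E-box CACGTG in 2.81% and 5.78% (7.15% and 8.798%), and the RFX X-box GTTGCCATG in 0.562% and 1.156% (0.773% and 0.811%). These are matches of letters, given as a description with no test. The liver promoters had a median of 3 CpG and 48.5% GC, and the testis promoters 5 and 52.3%. All promoters had 7 and 52.7%, and those of genes tested 16 and 58.3%. The shares were not adjusted for base composition. The 12 liver promoters with the HNF1 motif are shown because the motif's share there had the largest ratio to that of all promoters among the 7 motifs. Each window is printed 5′ to 3′ on the strand of the motif, with the 9 motif bases in capitals and 15 bases on either side.
Alb: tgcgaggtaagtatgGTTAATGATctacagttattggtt
Gc: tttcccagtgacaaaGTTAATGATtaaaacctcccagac
Fga: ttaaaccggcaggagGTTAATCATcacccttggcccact
Cfhr2: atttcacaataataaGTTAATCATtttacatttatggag
Slco1b2: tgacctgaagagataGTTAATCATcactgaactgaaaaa
Pzp: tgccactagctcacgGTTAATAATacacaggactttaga
Gm4788: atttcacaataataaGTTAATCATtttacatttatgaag
G6pc: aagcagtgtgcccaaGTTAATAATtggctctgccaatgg
Hc: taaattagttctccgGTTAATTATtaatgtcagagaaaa
Sult1d1: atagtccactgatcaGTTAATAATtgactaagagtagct
Pcbd1: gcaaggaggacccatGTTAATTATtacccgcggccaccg
Habp2: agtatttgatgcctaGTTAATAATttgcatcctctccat

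The Alb window lies at chr5:90460823-90460861 on the forward strand, with the motif starting 32 bases before the RefSeq start. The Fga window lies at chr3:83026092-83026130 and the window of Gc, the vitamin D carrier, at chr5:89457927-89457965. In 7 of the 12 the match is on the strand of the gene (Alb, Gc, Slco1b2, G6pc, Sult1d1, Pcbd1 and Habp2). Cfhr2 and Gm4788 are related genes with nearly the same window, so they do not count as independent. Slco1b2, a bile acid and drug importer, measured 355, 335 and 312 in liver and 0.06, 0.03 and 0.02 in testis. G6pc, the last enzyme of glucose release, had a mean of 165 in liver and 0.08 in testis.

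Markers of other liver cells were mostly higher in liver. All 12 Kupffer cell and macrophage genes were higher in liver, with a median of -2.65. Clec4f, a receptor found on Kupffer cells, measured 37.3, 51.4 and 74.0 in liver and had 2 reads in testis (ratio 5907, 95% interval from 1634 to 48780). C1qa, a complement protein of macrophages in general, measured 45.0, 64.9 and 94.0 in liver and 8.53, 6.83 and 20.01 in testis. Liver replicate 3 was highest and replicate 1 lowest for Clec4f and C1qa. All 10 endothelial genes (median -2.79) and 7 of 8 stellate cell genes (median -1.81) were higher in liver. All 5 blood genes were higher in liver (median -3.65, and -4.57 without testis replicate 3). Of 6 bile duct markers 1 was higher in liver, 2 were higher in testis and 3 were not called. Spp1 was the gene higher in liver, and Epcam, an adhesion protein that germ cells also carry, measured 15.3, 14.8 and 18.8 in testis and 1.00, 0.56 and 0.88 in liver. Krt19, a duct keratin, was not called (adjusted p = 0.114) and was called with the replicate number as a block (adjusted p = 0.0312) or without testis replicate 3 (adjusted p = 0.00776). Of 9 lymphocyte genes 3 could be tested (2 higher in testis and 1, Cd4, higher in liver), and the sum over the list was at most 3.43 in any library. Cd4, a marker of helper T cells and some macrophages, was higher in liver (-0.53, adjusted p = 0.0478), a call lost with the block (adjusted p = 0.0952) and a direction that turned with plain totals and TPM. The libraries of Cd4 overlapped between tissues, and its call was also lost without liver replicate 2 or 3 or testis replicate 2 or 3 (adjusted p = 0.125 to 0.135).

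**Figure D3:**
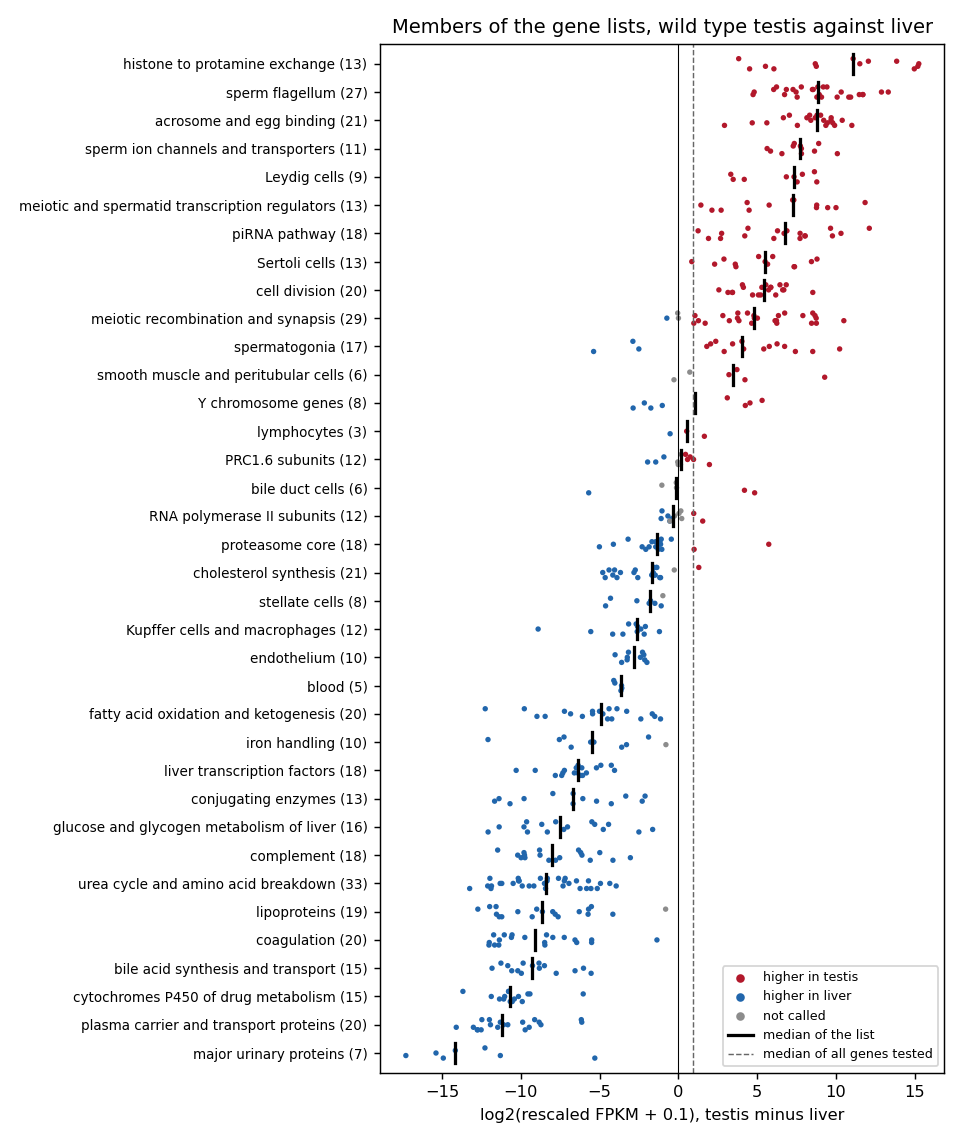
Difference in log2(rescaled FPKM + 0.1), wild type testis minus wild type liver, for each tested member of 36 gene lists (points, coloured by call), with the median of each list (bar) and of all genes tested (dashed line, 0.95). Sperm lists lie at the top with medians up to 11.09, secreted and metabolic liver lists at the bottom down to -14.15, and the RNA polymerase II and PRC1.6 lists near 0 (medians -0.32 and 0.15).

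Of 18 proteasome core genes, 16 were higher in liver and 2 in testis, against 31.1% and 56.6% of all genes tested. The median was -1.36, or -0.52 with plain totals and -0.32 with TPM. Of the 16, 5 differed by at least 2 on the log2 scale. Psma8, the alpha subunit of the proteasome of spermatocytes, measured 54.7, 54.4 and 53.4 in testis and 1.29, 0.96 and 0.62 in liver (5.74 ± 0.23, SE, adjusted p = 5.5e-07). Psma7, the subunit it can replace, measured 6.604, 7.35 and 10.7 in testis and 40.6, 38.3 and 40.9 in liver. Psmb8, a catalytic subunit of the immunoproteasome, measured 0.18, 0.27 and 0.49 in testis and 11.5, 11.5 and 15.1 in liver. Of 12 RNA polymerase II genes, 2 were higher in testis, 5 higher in liver and 5 not called (median -0.32, which turned positive with plain totals and TPM). Polr2f, a shared polymerase subunit and 1 of the 5, was not called without testis replicate 1 (adjusted p = 0.0597) or replicate 2 (adjusted p = 0.0649), and its direction turned with plain totals and TPM. Polr2a, the largest subunit, measured 30.9, 31.5 and 19.5 in testis and 9.55, 9.06 and 8.67 in liver. Polr2k was not called (adjusted p = 0.119) but was with the replicate number as a block (adjusted p = 0.00355) or without liver replicate 1 (adjusted p = 0.0447).

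Subunits of PRC1.6, a complex known for repressing germ cell genes in other cells, went in both directions, as did all genes tested. Of 12 genes 5 were higher in testis, 3 higher in liver and 4 not called, with a median of 0.15 (0.97 with plain totals and 1.19 with TPM). Over all genes tested, 56.6% were higher in testis and 31.1% higher in liver, with a median of 0.95. The list was not tested against that split. Max, the partner of Mga and 1 of the 3 higher in liver, turned with TPM. Pcgf6 measured 17.2, 16.6 and 19.5 in testis and 4.51, 3.76 and 5.20 in liver, 3.96 times higher in testis (1.97 ± 0.14, SE, adjusted p = 1.1e-05). E2f6, the DNA-binding partner that brings the complex to promoters, went the other way, at 1.18, 1.598 and 1.36 in testis and 5.32, 6.40 and 5.10 in liver (-1.95 ± 0.15, SE, adjusted p = 1.8e-05). Every testis library lay above every liver library for Pcgf6 and below it for E2f6. Ring1 and Wdr5 were not called, and with plain totals and TPM they were higher in testis.

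Germ cell genes that duplicate a broadly expressed gene were compared with that relative in 24 pairs. The germ cell gene was higher in testis in 22 of 24, the exceptions being Cstf2t and Ctcfl, which were not called. Ctcfl was called higher in testis without liver replicate 1 (adjusted p = 0.0187). The relative was higher in liver in 18, higher in testis in 5 (Aldoa, Cstf2, Taf7, Brd2 and Tbp) and not called in 1 (G6pdx, adjusted p = 0.153, and 0.0369 with the replicate block). Among those 18, Ldha, Utp14a and Ctcf turned to testis with plain totals and TPM, and Rbmx with TPM. For all genes tested, the shares were 56.6% higher in testis and 31.1% higher in liver. Of genes with at least 10 rescaled FPKM in liver, 75.7% of autosomal and 92.3% of X-linked genes were higher in liver. Not all relatives reached that level, and the pairs were not tested against these shares. The germ cell gene's mean share of the summed rescaled FPKM was above 50% in testis for 22 pairs.

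Pairs of energy metabolism ranged widely. Pgk2, the glycolytic kinase of germ cells encoded on chromosome 17, measured 325, 301 and 254 in testis with no liver read, while Pgk1, its relative on the X chromosome, measured 6.61, 6.03 and 8.35 in testis and 155, 177 and 155 in liver. Pgk2 thus made up 96.8 to 98.0% of the pair in testis and 0% in liver. Pdha2, a subunit of pyruvate dehydrogenase, made up 97.5 to 98.1% of its pair with the X-linked Pdha1 in testis. Ldhc, the lactate dehydrogenase of sperm, measured 1365, 1326 and 1531 in testis and had 3 reads in liver, while Ldha stayed abundant in testis at 198, 196 and 218 (318, 300.2 and 240 in liver). The call of Ldha (-0.48, adjusted p = 0.0170) was lost without liver replicate 1 or 2 or testis replicate 1 or 2 (adjusted p = 0.0545 to 0.0635). Gapdhs made up 99.8 to 99.9% of its pair in testis, but the low Gapdh values of both tissues (0.52 to 0.74 in testis and 3.74 to 4.75 in liver) are uncertain, as Gapdh has many near-identical copies. Cox8c, a subunit of respiratory complex IV, measured 442, 457 and 518 in testis with no liver read, and Cox8a 37.5, 40.7 and 69.7 against 526, 473 and 532 in liver. Slc25a31, the germ cell carrier of ADP and ATP, reached 50.3 to 57.0% against the X-linked Slc25a5. Aldoart1 remained the smaller share, at 27.5 to 36.8%, beside Aldoa at 71.8, 71.7 and 75.7 in testis and 33.6, 33.0 and 28.6 in liver.

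Among the ribosome, chaperone and chromatin pairs the share also ranged widely. Rpl10l, a germ cell ribosomal protein, made up 79.6 to 90.3% of its pair with the X-linked Rpl10 in testis and 0% in liver. Hspa2, the chaperone of spermatocytes, made up 88.3 to 92.1% in testis and 0.497 to 1.10% in liver. Hmgb4 made up 98.7 to 99.1% of its pair with Hmgb1 in testis, though Hmgb1 has near-identical copies. Brdt, the bromodomain protein of spermatids, made up 49.1 to 51.1% with Brd2, which itself was higher in testis. Ctcfl, a germ cell relative of Ctcf, made up 18.7 to 23.6%.

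**Figure D4:**
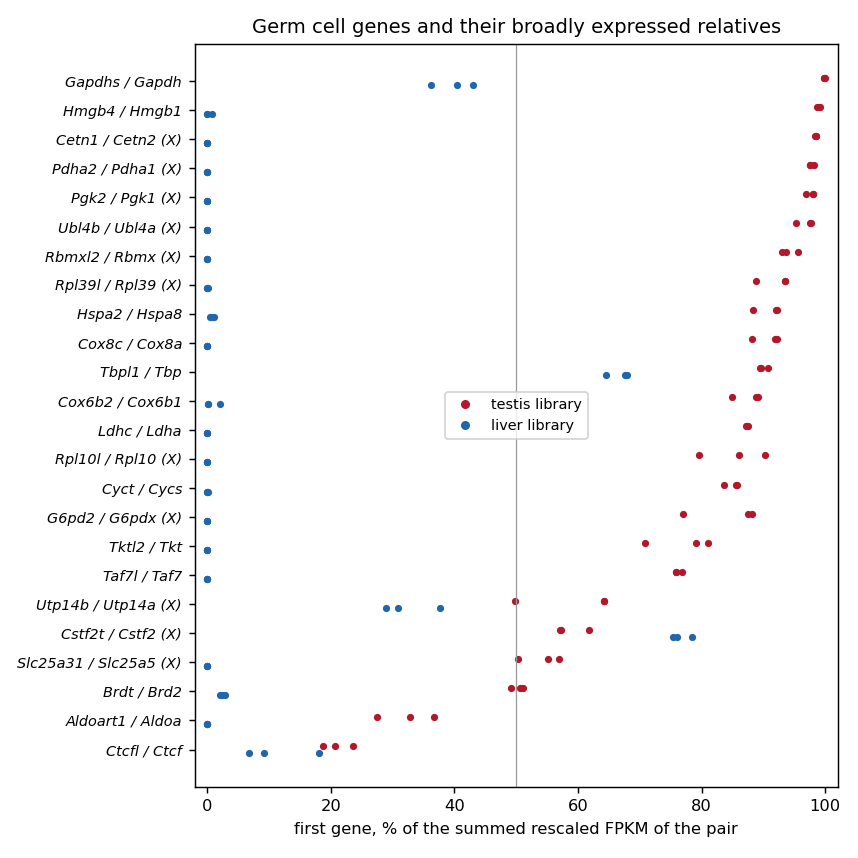
Share of the germ cell gene in the summed rescaled FPKM of each of 24 pairs, for 3 testis libraries (red) and 3 liver libraries (blue), with pairs whose broadly expressed gene is X-linked marked. Most testis points lie above 50% and most liver points at or near 0%, with Cstf2t, Tbpl1, Gapdhs, Utp14b and Ctcfl above 5% in liver.

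In 11 of the pairs the broadly expressed gene is X-linked. X-linked genes are silenced in male germ cells during meiosis and remain largely repressed afterwards. Of these 11 X-linked relatives, 9 were higher in liver, 1 was higher in testis (Cstf2) and 1 was not called (G6pdx). Of the 13 autosomal relatives 9 were higher in liver and 4 were higher in testis. The difference between X-linked and autosomal relatives was not tested. Among genes with at least 10 rescaled FPKM in liver, 92.3% of X-linked and 75.7% of autosomal genes were higher in liver. The relatives were not tested against those shares. The germ cell gene had a mean share above 50% in testis in all 11 pairs with an X-linked relative, and in 11 of the 13 pairs with an autosomal relative.

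The X chromosome as a whole held both strongly testis-higher and strongly liver-higher genes. Of 826 X-linked genes tested, 60.2% were higher in testis and 30.4% in liver, within the ranges of single autosomes (47.1 to 63.0% and 24.5 to 39.9%). A testis-higher difference of at least 2 on the log2 scale was called for 46.9% of X-linked genes, above the highest autosome (44.4%), with no test of that difference. The 5 most abundant X-linked genes in testis, Akap4, Tsga8, Cypt1, Hypm and Gm6760, had no read in liver. Of the 104 X-linked genes with at least 10 rescaled FPKM in liver, 96 were higher in liver (92.3%), against 75.7% of 4065 such autosomal genes. Their median differences were -2.82 and -1.58 on the log2 scale. Of the 110 X-linked genes with at least 10 in testis, 79.1% were higher in testis, against 72.8% of 4767 such autosomal genes, and 70.9% against 52.0% by at least 2 on the log2 scale. Both selections were made after the files were seen, and each favours the direction of the tissue it selects on.

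The ratio of the median X-linked to the median autosomal level depended on the genes counted. Over all genes tested it was 0.629, 0.630 and 0.729 in testis and 0.124, 0.143 and 0.141 in liver (exact permutation p = 0.1, two-sided, the smallest possible). Over genes with a mean of at least 1 in either tissue it was 0.685 ± 0.0349 in testis and 0.219 ± 0.0242 in liver (SD, n = 3 each). Protein coding genes gave 0.530 ± 0.0339 and 0.126 ± 0.0119. Each of these gene sets lets in genes through 1 tissue alone. Their ratios therefore cannot separate the level of X-linked genes from the choice of genes. The order turned for the 193 X-linked and 8057 autosomal genes with at least 1 in all 6 libraries, at 0.547 ± 0.0147 in testis and 1.10 ± 0.0469 in liver. The last 2 gene sets were added after the files were seen. Of that last set 192 X-linked genes could be tested, and 68.8% of them were higher in liver, against 47.1% of 8039 autosomal genes.

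**Figure D5:**
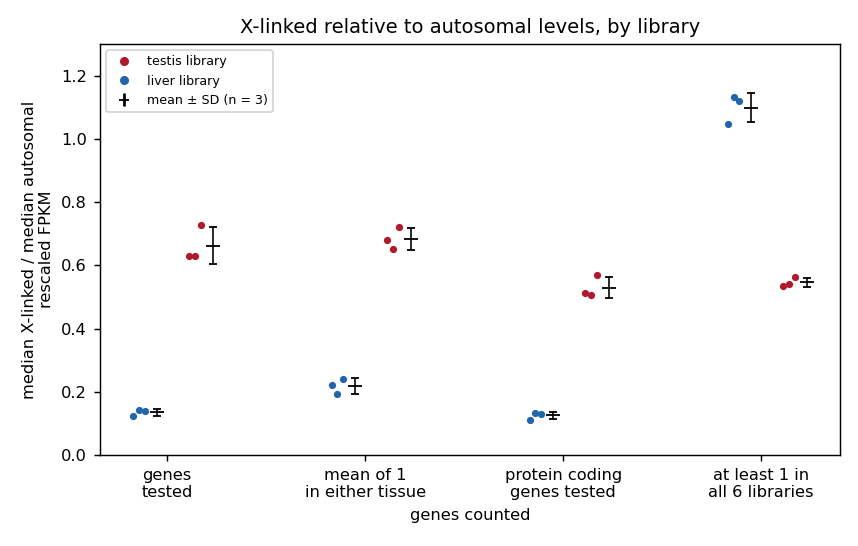
Median X-linked over median autosomal rescaled FPKM in each testis (red) and liver (blue) library, for 4 choices of genes, with mean ± SD of 3 libraries. The testis points lie above the liver points for the first 3 choices and below them (0.547 against 1.10 on average) for genes of at least 1 in all 6 libraries.

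Y-linked and mitochondrial genes went in opposite directions. Of 72 Y-linked genes tested, 66 were higher in testis and 5 in liver. Among the 5 highest in testis, Gm20827, Uba1y, Gm27466 and Gm21127 had no read in liver. Such genes can pass the filter through testis alone and can only be called higher in testis. Gm27466 rested on 34 testis reads. In the list of 13 Y genes, of which 8 could be tested, Ddx3y, Eif2s3y, Kdm5d and Uty, which act in many tissues, were higher in liver, Eif2s3y at 19.1, 17.0 and 17.2 against 8.66, 8.52 and 8.89 in testis, a direction that turned with TPM. Usp9y, Zfy1, Zfy2 and Uba1y had no read in liver, and Uba1y, a ubiquitin-activating enzyme of germ cells, measured 4.70, 4.10 and 3.02 in testis. The multi-copy genes Sly, Ssty1 and Ssty2 were listed at 0 in all 6 libraries, and reads of such copies are uncertain. All 27 mitochondrially encoded genes tested were higher in liver, with a median of -3.65, and took 5.25 to 5.66% of reads in liver and 0.807 to 1.04% in testis.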

How the data were processed

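The deposited tables give FPKM, a level per length and library size that the authors computed, and list 52636 genes. Per the submitters' processing notes, HISAT2 2.0.5, featureCounts 1.5.0-p3, DESeq2 1.16.1 and the mm10 build were used. Multiplied by gene length, these values fell on whole reads within 0.01 reads in 100% of cases, so reads were recovered and rescaled by the trimmed mean of M values over the 6 wild type libraries (trims of 30% and 5%). Of the genes, 15400 had no read in these 6. Genes with 10 reads in at least 3 libraries were tested with limma 3.58.1 (R 4.3.3, trend) on log2(rescaled FPKM + 0.1), a scale that understates the change of low genes, with Benjamini-Hochberg adjustment. A count-based test was planned only if the files held counts. They hold FPKM, so it was not used, although whole reads could be recovered.

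Samples were grouped by tissue and genotype as labelled. The members, lists and rules were chosen with earlier results of these data known. Genes are named by rule: the 15 largest called differences per direction (mean of at least 10 in the higher tissue, no overlap), the 10 most abundant per tissue, the 4 most abundant of each list and up to 3 members called against it, both genes of 24 pairs, Pcgf6, up to 10 genes whose tissue difference depended on genotype, and the 5 highest X- and Y-linked genes in testis. Others, such as members that were not called, were named after their values were seen. Of 557 list symbols 1 was not matched. Where a tissue had no read, the fold is a bound against 3 reads per library, and ratios resting on 1 to 3 reads have exact 95% intervals. Such bounds and intervals reflect counting error alone.

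A simulation of this comparison with 200 changed genes (21420 genes run) tested the procedure. In it the most abundant liver transcripts were also set far lower in testis, and calls of these were not counted as false. Recovery was 89.6% at 2-fold and 100% at 4-fold and 8-fold, with 14 false calls among 227. The median log2 difference of its unchanged genes was 0.016 with the trimmed mean of M values and 0.306 with plain totals. Far fewer genes were changed in it than differ between these tissues, so it cannot decide the choice of scaling for these data. Same-numbered libraries deviated together over 12119 genes (correlations of 0.119, 0.109 and 0.215), which meets the rule for pairs, so the replicate number was used as a block in an alternative. Libraries with unlike numbers gave correlations from -0.179 to 0.0686, some of them positive. The pairing comes from the titles' numbers, and these correlations do not show whether same-numbered libraries share an animal. Results for some genes are not reported here. Alternatives also varied scaling, pseudocount, filter, model and libraries. Summaries and plots were made in Python 3.11.15 with pandas 2.3.3, matplotlib 3.10.9, numpy 2.4.6 and scipy 1.17.1.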

Additional observations from a re-analysis of the deposited data

Results flagged for a closer look

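For 5 genes the tissue difference depended on genotype, by a test of tissue and genotype together in limma over the 12 testis and liver libraries (23403 genes tested). The change of the testis minus liver difference, KO minus WT on the log2 scale, was -6.98 for Mael (adjusted p = 9.9e-07), -4.81 for Slc25a31 (adjusted p = 0.000837), -4.11 for Syce1 (adjusted p = 2.1e-07), -2.53 for Ddx4 (adjusted p = 0.00604) and -1.95 for Tex11 (adjusted p = 0.0268). Mael had means of 0 in WT liver and 13.6 in KO liver, against 437 and 455 in testis. Ddx4 had 0.013 in WT liver and 0.608 in KO liver, and Tex11 0 and 0.247. Of the 10 most abundant testis genes, all but Gm5617 also had a higher mean in KO than in WT liver. Scaled within each genotype, Prm1 stood at 1.28 against 0.09, Tnp1 at 0.97 against 0 and Tnp2 at 1.48 against 0.07. Prm1, Tnp1 and Tnp2 were not called in this test, and the cause of their KO liver values was not tested. With the replicate number as a block, Ddx4 (adjusted p = 0.0649) and Tex11 (adjusted p = 0.226) were not called.
Leaving out liver KO 4 gave 59 genes in place of 5. The means of Mael, Ddx4 and Tex11 in this section use a scaling over the 12 libraries, so they differ slightly from the wild type values above.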

How the results depend on the processing

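Of 226 named genes tested, 196 kept their call and direction over 18 alternatives, and the replicate block changed 4 named calls (Krt19, Polr2k, G6pdx and Cd4), with 12317 genes higher in testis and 6808 higher in liver under the block against 12300 and 6757. A filter on a mean of 1 gave 8001 genes higher in testis (8007 in KO), having fewer genes to test. TPM gave 4110 higher in liver (4364 in KO, with 2062 strong), and limma's test for a change above 1 (treat) gave 4199 (4582 in KO). A pseudocount of 1 gave 4162 strong testis genes (4195 in KO).

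Leaving out 1 library gave 11909 to 12152 genes higher in testis, 6400 to 6814 higher in liver, 8081 to 8165 strong in testis and 2959 to 3125 strong in liver (KO 12103 to 12436, 6785 to 7177, 8136 to 8236 and 3117 to 3248). These fits kept the genes of the 6-library fit, a choice made after the other way had been seen. With the read filter applied again to 5 libraries, leaving out testis replicate 1, 2 or 3 gave 4720, 4681 and 4959 higher in testis and 2094, 2082 and 2114 strong, because genes read only in testis cannot pass in 3 of the libraries left. Those fits gave 6377, 6371 and 6794 higher in liver, so the order of the counts turned. Leaving out a liver library in this way gave 12081 to 12133 higher in testis and 5950 to 6041 higher in liver. The genotype test gave 5 genes and from 4 to 59 with 1 library out (59 without liver KO 4, 11 without testis WT 2, 8 without liver WT 3).

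The X to autosome difference of 0.527 was 0.494 to 0.544 with 1 library out, 0.466 for genes of at least 1 in either tissue, 0.403 for protein coding genes and reversed to -0.553 for genes of at least 1 in all 6 libraries. The last 2 were chosen after the data were seen, and the cause was not tested. The difference in genes past the threshold was 4304, and 9290 at 0.1 and 687 at 10. With plain totals and then TPM, reversed log2 differences were 0.29 and 0.50 for Ctcf, 0.10 and 0.29 for Cd4, 0.79 and 1.00 for Ring1, 0.82 and 1.03 for Wdr5, 0.30 and 0.50 for Polr2f, 0.37 and 0.57 for Ldha, and 0.20 and 0.41 for Utp14a. TPM alone reversed Rbmx (0.0804), Max (0.11) and Eif2s3y (0.015). Reversed medians were 0.49 and 0.72 for bile duct cells (2.04 with a mean of 1), 0.51 and 0.71 for RNA polymerase II, and -1.385 with a mean of 1 and -0.0679 with a pseudocount of 1 for Y genes. Depth limits genes at 0 reads to the bounds given.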
